A study of Mus musculus with 2 samples.

Results

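The cells described here are B cells of the mouse spleen in which transcripts of Pdzd2, a gene for a scaffold protein with several PDZ domains, outnumbered the summed transcripts of Dnm3 and Nr3c2. They came from a study that sorted spleen cells positive for CD45.2 and for the myeloid integrin CD11b, under a treatment labelled High B12 and a treatment labelled Low B12, with 1 single-cell 3′ RNA library for each. The labels give no genotype, age, dose or number of mice, and the study's title places the work in Tet2-deficient haematopoiesis. The spleen cells had been frozen viably before the sort. Of 6748 cells in the high-B12 library 85 met the rule, and of 6510 cells in the low-B12 library 114 did, 199 of 13258 cells in all.

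A cell was a barcode with at least 500 unique molecular identifiers (UMIs, the counted transcripts), at least 200 genes and at most 10% mitochondrial UMIs. A B cell had at least 3 UMIs of Cd79a, Cd79b and Ms4a1 together, none of the CD3 chains or Ncr1, and less than 1% of its UMIs from S100a8 and S100a9. This gave 614 high-B12 and 1726 low-B12 B cells. B cells with 2 or more UMIs of Sox5 and Cacna1e were set aside, and the remaining B cells were divided by whether Pdzd2 or Dnm3 plus Nr3c2 had more UMIs. The members were thus chosen by the UMI counts of these same cells, so their expression profile is a description without a test. With 1 library per treatment, treatment and library cannot be told apart, and every interval below covers counting error only.

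Mature B cells carry IgM and IgD on their surface together with the signalling chains CD79A and CD79B, and they recirculate through spleen and lymph nodes with the help of chemokine receptors. Each B cell makes 1 rearranged heavy chain and 1 light chain, and cells of 1 clone share their V segments, as do unrelated clones that happen to use the same ones. Most mature B cells of the spleen carry little CD11b. B-1 cells and the age-associated B cells that express the transcription factor T-bet are known as B cells that can carry it.

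Pdzd2-dominant cells held 458283 UMIs in the high-B12 and 710583 UMIs in the low-B12 library. The median cell had 5108 UMIs and 1965 genes in the high-B12 and 5672 UMIs and 2107 genes in the low-B12 library. All 20 genes of a general B cell list were detected in both libraries, and their summed level was 27928 CPM (a gene's UMIs scaled to a common total of 1000000) in high-B12 and 26557 CPM in low-B12 cells. Of 12 T cell genes 10 were at 0 in high-B12 and 9 in low-B12 cells, and of 8 platelet genes 7 were at 0 in each. Cd3d, Cd3e and Cd3g, counted among these T cell genes, were at 0 by the rule. The summed level of 12 NK cell genes was 78.6 CPM in high-B12 and 63.3 CPM in low-B12 cells. Klrb1c, Gzmb and Eomes were at 0, and Ncr1 was at 0 by the rule. Scrublet, a doublet caller run per library, marked 3 high-B12 and 9 low-B12 Pdzd2-dominant cells. Of these, 1 high-B12 and 5 low-B12 cells had 10 or more UMIs of the monocyte gene Lyz2. The 2 libraries shared 4 barcodes among all their cells.

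Pdzd2 reached a median of 3 UMIs per member cell in each library, with a maximum of 12 in high-B12 and 13 in low-B12 cells. It had a level of 619.7 CPM (high B12) and 547 CPM (low B12). Of the member cells, 63 of 85 high-B12 and 82 of 114 low-B12 cells had no UMI of Dnm3 or Nr3c2. The rule was met with a margin of only 1 UMI in 30 high-B12 and 36 low-B12 cells. Cells tied at 1 or more Pdzd2 UMIs, just outside the rule, numbered 7 (high B12) and 22 (low B12). Their Ighd, the constant region of IgD, stood at 601 CPM (high B12) and 639.9 CPM (low B12), against 566 CPM (high B12) and 761 CPM (low B12) in the members inside by 1 UMI. A further 36 high-B12 and 67 low-B12 B cells had more Pdzd2 than Dnm3 plus Nr3c2 but were set aside for Sox5 and Cacna1e.

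**Figure D1:**
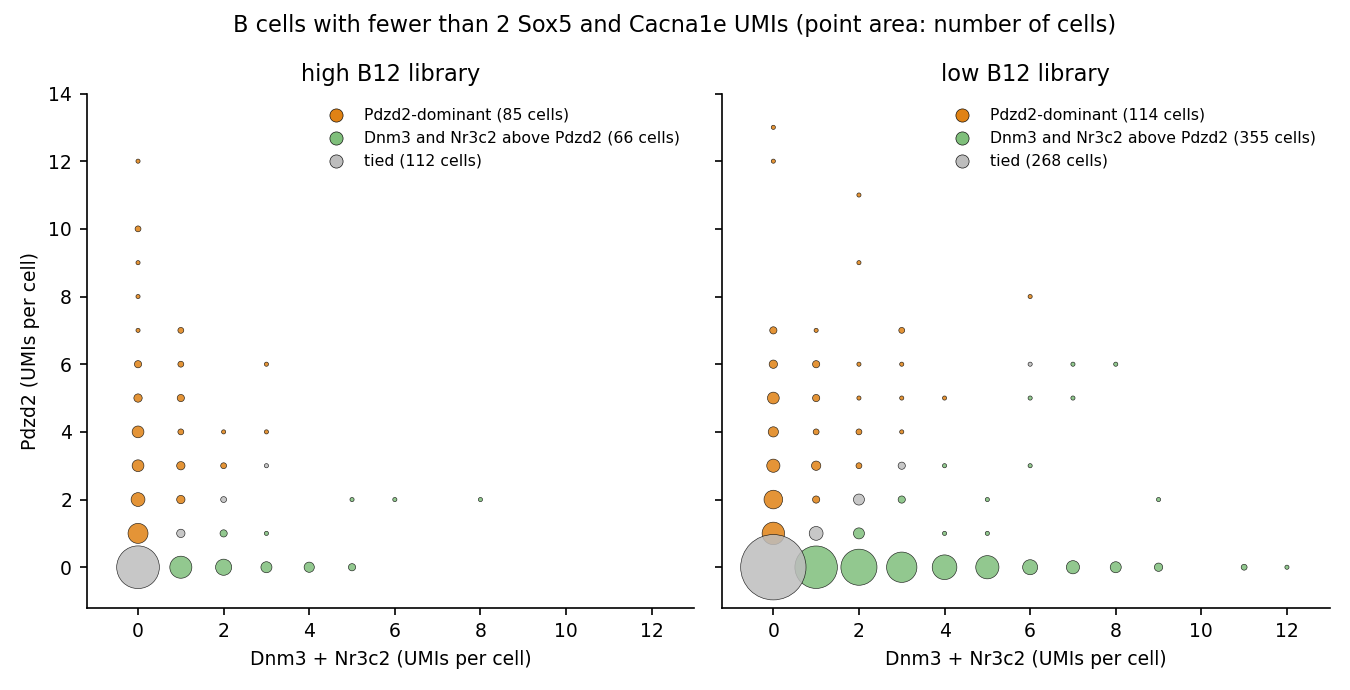
UMIs of Pdzd2 per cell (vertical axis) against UMIs of Dnm3 plus Nr3c2 per cell (horizontal axis) for B cells with fewer than 2 UMIs of Sox5 and Cacna1e, high-B12 library on the left and low-B12 library on the right, with point area proportional to the number of cells. The 85 high-B12 and 114 low-B12 Pdzd2-dominant cells lie above the diagonal, most of them at 0 on the horizontal axis, and the grey tied cells lie mostly at the origin.

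Pdzd2 was rare in T cells and neutrophils. To compare shares of cells with a UMI of a gene, every cell was thinned to 2000 UMIs, which left out 2 shallower member cells in each library. Every member had Pdzd2 by the rule, and it was seen in 10.9% (high B12, 17.4% unthinned) and 7.40% (low B12, 13.3% unthinned) of the Sox5 and Cacna1e B cells. In cells that should lack B cell genes it was seen in 0 of 65 high-B12 and 0 of 73 low-B12 T cells, which allows shares of up to 4.62% and 4.11%. It was seen in 1 of 1938 high-B12 and 2 of 556 low-B12 neutrophils. The median depth was 6333 UMIs in high-B12 and 5640 UMIs in low-B12 T cells, and 3871 UMIs in high-B12 and 3480 UMIs in low-B12 neutrophils.

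Pdzd2-dominant cells made up a larger share of the B cells in the high-B12 library. They were 13.8% of its B cells (exact binomial interval 11.2 to 16.8%) and 6.60% of the low-B12 B cells (5.48 to 7.88%). As a share of all cells they were lower in the high-B12 library, at 1.26% of its cells, against 1.75% of the low-B12 cells. B cells as a whole were 9.10% of high-B12 cells and 26.5% of low-B12 cells. When each B cell was thinned to 2000 UMIs before the rule was applied, the shares were 10.9% of high-B12 B cells and 6.14% of low-B12 B cells. With a margin of at least 2 UMIs they were 8.96% (high B12) and 4.52% (low B12). The Dnm3 and Nr3c2-dominant cells, with 66 high-B12 and 355 low-B12 cells, made up 10.7% (high B12) and 20.6% (low B12) of B cells. The Sox5 and Cacna1e cells were 57.2% (high B12) and 57.3% (low B12).

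The V segments of the antibody chains, which the rule did not use, differed in share between the Pdzd2-dominant cells and the other B cells of the low-B12 library. In the other low-B12 B cells the kappa light chain segments Igkv12-46 and Igkv3-4 led most cells, and in the Pdzd2-dominant cells they led a smaller share. Igkv12-46 and its neighbour Igkv12-44 are similar, with 92.5% of their final 120 bases identical, and these bases are shown because the counts of the 2 segments rest on telling them apart. The sequences are from GENCODE M21 transcripts and lie in the V exon, at chr6:69764523-69764642 for Igkv12-46 and chr6:69814631-69814750 for Igkv12-44 (GRCm38, minus strand). Capitals mark the 9 positions at which the 2 segments differ.
Igkv12-46: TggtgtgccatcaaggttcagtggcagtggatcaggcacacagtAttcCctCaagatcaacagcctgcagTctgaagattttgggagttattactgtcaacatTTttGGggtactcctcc
Igkv12-44: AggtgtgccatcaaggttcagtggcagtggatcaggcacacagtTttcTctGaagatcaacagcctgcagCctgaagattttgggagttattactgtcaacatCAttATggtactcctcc
How the authors' counting treated reads shared by the 2 segments is not given in the sources used here, so each count of them is uncertain to that degree.

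A kappa V transcript was seen in 42 of 85 high-B12 and 61 of 114 low-B12 Pdzd2-dominant cells. A leading segment was assigned where a cell had at least 2 kappa V UMIs and 1 segment had the most, which left 11 high-B12 and 31 low-B12 member cells. In the low-B12 library Igkv12-46 or Igkv3-4 led 10 of 31 Pdzd2-dominant cells, or 32.3% (exact binomial interval 16.7 to 51.4%), and 342 of 456 other B cells, or 75% (70.8 to 78.9%). The intervals did not overlap, and the cells of each share come from 1 library, so the difference describes that library. Igkv12-46 itself led 8 member cells, Igkv12-44 led 5 and Igkv3-4 led 2, out of 17 segments seen. Counting Igkv12-44 together with Igkv12-46 gave 15 of 31 member cells, or 48.4% (30.2 to 66.9%), against 349 of 459 other B cells, or 76.0% (71.9 to 79.9%).

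Within the low-B12 library, the 2 kappa segments led 90 of 103 Dnm3 and Nr3c2-dominant cells, or 87.4%. They led 228 of 306 Sox5 and Cacna1e cells, or 74.5%, and 24 of 47 tied cells, or 51.1%. The interval of the tied cells, 36.1 to 65.9%, overlapped that of the Pdzd2-dominant cells.

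The heavy chain differed in the same direction, on fewer cells. Ighv3-6 or Ighv6-3 led 1 of 10 low-B12 Pdzd2-dominant cells with a leading heavy segment, or 10.0% (0.253 to 44.5%), against 101 of 160 other low-B12 B cells, or 63.1% (55.1 to 70.6%). Counting any cell with a UMI, Ighv3-6 was seen in 1 of 114 low-B12 Pdzd2-dominant cells, or 0.877%, and in 171 of 1612 other low-B12 B cells, or 10.6%. Ighv6-3 was likewise seen in 1 of 114 low-B12 Pdzd2-dominant cells and in 185 of 1612 other low-B12 B cells. Heavy and light segments went together: over all low-B12 B cells 137 had Ighv3-6 with Igkv12-46 and 110 had Ighv6-3 with Igkv3-4, while the crossed pairs were seen in 0 and 3 cells. Of those matched pairs, the Pdzd2-dominant cells held 1 of each. Outside the B cells, Igkv12-46 was seen in 1 of 4191 low-B12 cells without a UMI of Cd79a, Cd79b or Ms4a1.

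In the high-B12 library no such pair of segments led. Igkv12-46 or Igkv3-4 led 0 of 11 Pdzd2-dominant cells, which allows a share of up to 27.3% by 3 cells of 11 and 28.5% by the exact binomial interval, and 11 of 145 other B cells, or 7.59%. Igkv9-120 led 3 of the 11 Pdzd2-dominant cells, and 8 segments were seen among them. Where a cell with only 1 kappa V UMI was admitted, the shares were 5 of 37 high-B12 Pdzd2-dominant cells, or 13.5%, and 15 of 56 low-B12 Pdzd2-dominant cells, or 26.8%. In the other B cells they were then 21 of 275 (high B12), or 7.64%, and 588 of 872 (low B12), or 67.4%. In the high-B12 library the Pdzd2-dominant share was thus above that of the other B cells in this setting, with overlapping intervals (4.54 to 28.8% and 4.79 to 11.4%).

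**Figure D2:**
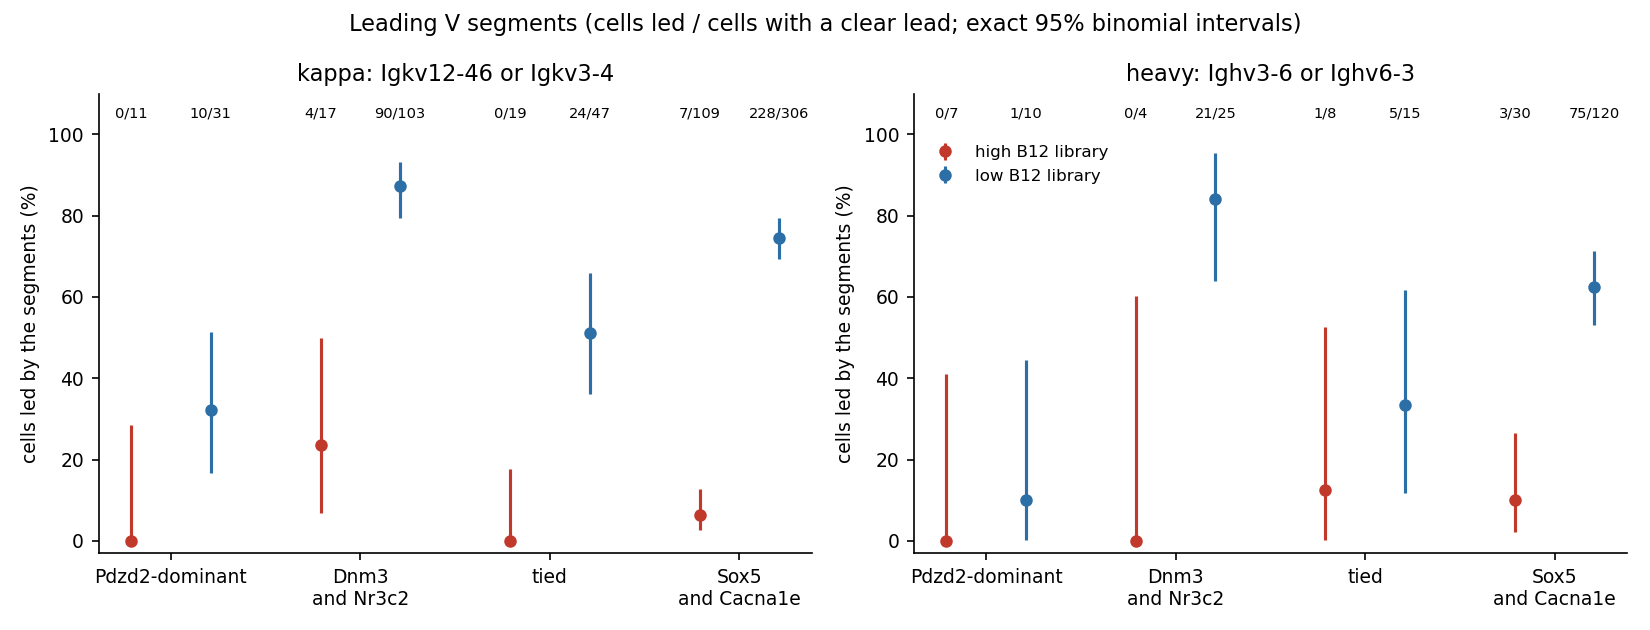
Percent of cells led by Igkv12-46 or Igkv3-4 (left) and by Ighv3-6 or Ighv6-3 (right) for the 4 groups of B cells in the high-B12 (red) and low-B12 (blue) library, with exact 95% binomial intervals and the numbers of cells above. In the low-B12 library the Pdzd2-dominant cells sit at 32.3% and 10.0%, against 87.4% and 84.0% for the Dnm3 and Nr3c2 cells.

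Pdzd2-dominant cells had a high level of the IgD constant region. Ighd stood at 554 CPM (high B12) and 688 CPM (low B12) in them, against 266 CPM (high B12) and 268 CPM (low B12) in Dnm3 and Nr3c2-dominant cells and 171 CPM (high B12) and 244 CPM (low B12) in Sox5 and Cacna1e cells. The ratio to the Dnm3 and Nr3c2 cells was 2.08 (1.66 to 2.62) in the high-B12 library and 2.57 (2.27 to 2.90) in the low-B12 library. In both libraries Ighd was higher in Pdzd2-dominant than in either other group, and the tied cells lay between.

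Over all genes with at least 50 summed UMIs, 73 of 2677 (2.73%) were at least 1.5-fold higher in Pdzd2-dominant than in Dnm3 and Nr3c2-dominant cells in both libraries, and 42 (1.57%) were at least 1.5-fold lower in both. Against the Sox5 and Cacna1e cells 169 of 6480 genes (2.61%) were higher and 215 (3.32%) lower in both libraries. Against the tied cells 52 of 3097 genes (1.68%) were higher and 43 (1.39%) lower. The median log2 ratio of all genes was 0.12 over the Dnm3 and Nr3c2 cells in the high-B12 library and 0.01 in the low-B12 library.

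With the genes of the rule left out, as well as genes under 100 CPM, the gene with the largest ratio over the Dnm3 and Nr3c2 cells by the smaller of the 2 libraries was Klra1, which encodes the inhibitory receptor Ly49A for MHC class I, known from NK cells. It stood at 297 CPM (high B12) and 132 CPM (low B12) in Pdzd2-dominant cells, against 73.0 CPM (high B12) and 5.89 CPM (low B12) in Dnm3 and Nr3c2-dominant and 12.9 CPM (high B12) and 7.47 CPM (low B12) in Sox5 and Cacna1e cells. The ratio to the Dnm3 and Nr3c2 cells was 4.07 (2.74 to 6.22) in the high-B12 library and 22.4 (12.5 to 43.7) in the low-B12 library. The Ly49 genes are close paralogs, so reads of another member could be counted here. Klra1 transcripts came from 45 of 85 high-B12 and 39 of 114 low-B12 cells, and the summed level of the 12 NK cell genes is given above.

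Pcp4, which encodes a calmodulin-binding peptide, followed with 231 CPM (high B12) and 180.1 CPM (low B12) in Pdzd2-dominant cells and 58.9 CPM (high B12) and 18.1 CPM (low B12) in Dnm3 and Nr3c2-dominant cells. Il9r, the receptor chain for interleukin 9, stood at 177 CPM (high B12) and 199.8 CPM (low B12) in Pdzd2-dominant cells and 63.6 CPM (high B12) and 84.8 CPM (low B12) in Dnm3 and Nr3c2-dominant cells. Thinned to 2000 UMIs, Il9r was seen in 28.9% (high B12, 48.2% unthinned) and 29.5% (low B12, 51.8% unthinned) of Pdzd2-dominant cells and in 10.8% (high B12, 24.2% unthinned) and 15.9% (low B12, 31.5% unthinned) of Dnm3 and Nr3c2-dominant cells. Among T cells Il9r was seen in 0% (high B12, 0% unthinned) and 1.37% (low B12, 3.90% unthinned), where 0 of 65 thinned high-B12 cells allows up to 4.62%. Klra1, Pcp4 and Il9r were thus higher in Pdzd2-dominant than in Dnm3 and Nr3c2-dominant cells of both libraries. They were not confined to the members. In the cells tied at 1 or more Pdzd2 UMIs Klra1 stood at 125 CPM (high B12) and 135 CPM (low B12). Pcp4 stood at 75.1 CPM (high B12) and 158 CPM (low B12) there, and Il9r at 225 CPM (high B12) and 158 CPM (low B12). At this depth a cell without a UMI of these genes may still express them.

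Other genes named by the same rule were Arl5c, a small GTPase of the ARF family, Bcl11a, Lamb3, a laminin chain, Srgap3, a GTPase-activating protein for Rac, the ubiquitin-conjugating enzyme Ube2w and the homeobox gene Cux1. Arl5c stood at 177 CPM (high B12) and 156 CPM (low B12) in Pdzd2-dominant cells and 73.0 CPM (high B12) and 47.6 CPM (low B12) in Dnm3 and Nr3c2-dominant cells. Cux1 stood at 487 CPM (high B12) and 491 CPM (low B12) in Pdzd2-dominant cells and 165 CPM (high B12) and 252 CPM (low B12) in Dnm3 and Nr3c2-dominant cells. Each of these was higher in both libraries.

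Against the tied cells, with the same genes left out, the leading gene was Itga2, which encodes the collagen-binding integrin chain CD49b, with 122 CPM (high B12) and 137 CPM (low B12) in Pdzd2-dominant cells and 24.2 CPM (high B12) and 53.1 CPM (low B12) in tied cells. Hsd11b1, the enzyme that regenerates active glucocorticoid, stood at 181 CPM (high B12) and 137 CPM (low B12) in Pdzd2-dominant cells and 60.4 CPM (high B12) and 77.3 CPM (low B12) in tied cells. Adgre1, which encodes the macrophage antigen F4/80, stood at 508 CPM (high B12) and 574 CPM (low B12) in Pdzd2-dominant cells and 200.2 CPM (high B12) and 256 CPM (low B12) in tied cells. Adgre1 was not carried by a few cells: thinned to 2000 UMIs it was seen in 60.2% (high B12, 78.8% unthinned) and 64.3% (low B12, 86.0% unthinned) of Pdzd2-dominant cells and in 8.0% (high B12, 13.8% unthinned) and 12.4% (low B12, 17.9% unthinned) of neutrophils. Without the called doublets its level was 517 CPM (high B12) and 613 CPM (low B12). In B cells with Pdzd2 above but set aside for 2 UMIs of Sox5 and Cacna1e, Adgre1 stood at 671 CPM (high B12) and 845 CPM (low B12).

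**Figure D3:**
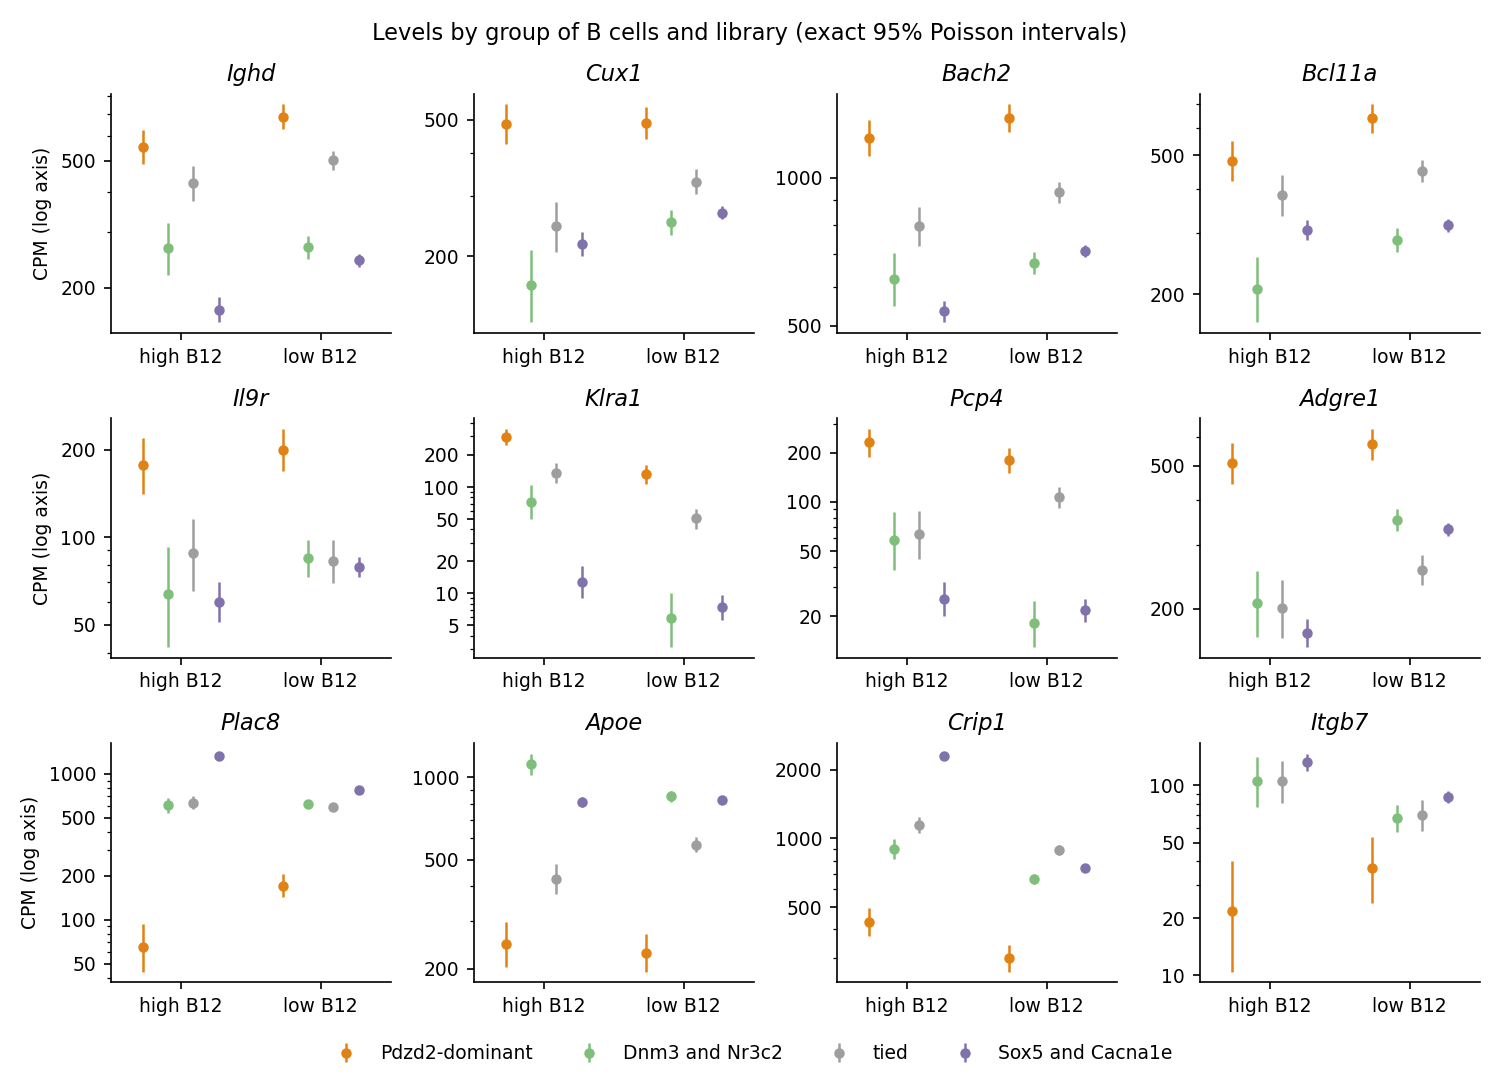
Levels of 12 genes in CPM (log axis) in Pdzd2-dominant (orange), Dnm3 and Nr3c2-dominant (green), tied (grey) and Sox5 and Cacna1e (purple) B cells of the high-B12 and low-B12 libraries, with exact 95% Poisson intervals. The orange points are the highest of their library for the first 8 genes and the lowest for Plac8, Apoe, Crip1 and Itgb7.

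Some B lineage transcription factors were higher in Pdzd2-dominant than in Dnm3 and Nr3c2-dominant cells of both libraries. Of 26 listed factors measured in both libraries, 6 were at least 1.5-fold higher than in the Dnm3 and Nr3c2 cells in both and 1 was lower, beside 2.73% and 1.57% of all genes. Bach2, a repressor that holds back plasma cell formation, stood at 1204 CPM (high B12) and 1323 CPM (low B12) in Pdzd2-dominant cells and 622 CPM (high B12) and 670.0 CPM (low B12) in Dnm3 and Nr3c2-dominant cells. The ratio was 1.94 (1.67 to 2.25) in the high-B12 library and 1.97 (1.82 to 2.14) in the low-B12 library. Bcl11a, a zinc finger factor of early B cells, stood at 482 CPM (high B12) and 638 CPM (low B12) in Pdzd2-dominant cells and 207 CPM (high B12) and 287 CPM (low B12) in Dnm3 and Nr3c2-dominant cells. Ebf1, Foxo1, Foxp1 and Mef2c were the other 4. Foxo1 stood at 201 CPM (high B12) and 376 CPM (low B12) in Pdzd2-dominant cells and 125 CPM (high B12) and 166 CPM (low B12) in Dnm3 and Nr3c2-dominant cells. The lower factor was Bhlhe41, known from B-1 cells, with 69.8 CPM (high B12) and 83.0 CPM (low B12) in Pdzd2-dominant cells and 106 CPM (high B12) and 151 CPM (low B12) in Dnm3 and Nr3c2-dominant cells. Against the Sox5 and Cacna1e cells 4 of 30 factors were higher in both libraries (Bach2, Bcl11a, Klf3 and Mef2c) and 5 lower (Irf4, Spib, Tcf4, Bhlhe41 and Myc), beside 2.61% and 3.32% of all genes. Against the tied cells 0 of 28 factors were 1.5-fold higher and 0 lower in both libraries, beside 1.68% and 1.39% of all genes.

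Many of these factors are long genes, and gene length moved with the comparison. Over the Dnm3 and Nr3c2 cells of the high-B12 library the median log2 ratio was -0.06 for the 670 genes with the shortest span and 0.31 for the 670 with the longest. In the low-B12 library these medians were -0.06 and 0.09, over 1621 genes each. Pdzd2 spans 380.2 kb, Bach2 347 kb and Ebf1 391 kb, while Klra1 spans 22.96 kb. The part of gene length in the ratios of the long genes was not tested.

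Of 15 trafficking receptors and integrins measured in both libraries, 4 were at least 1.5-fold higher than in the Dnm3 and Nr3c2 cells in both and 2 were lower, beside 2.73% and 1.57% of all genes. Those higher in Pdzd2-dominant cells included Ccr6, a chemokine receptor of mature B cells, Cnr2, the cannabinoid receptor of leukocytes, and Itgax, the integrin chain CD11c. Ccr6 stood at 82.9 CPM (high B12) and 98.5 CPM (low B12) in Pdzd2-dominant cells and 37.7 CPM (high B12) and 38.5 CPM (low B12) in Dnm3 and Nr3c2-dominant cells. Cnr2 stood at 185 CPM (high B12) and 180.1 CPM (low B12) in Pdzd2-dominant cells and 87.1 CPM (high B12) and 101 CPM (low B12) in Dnm3 and Nr3c2-dominant cells. The lower ones were the chains of the gut-homing integrin, Itga4 and Itgb7. Itgb7 stood at 21.8 CPM (high B12) and 36.6 CPM (low B12) in Pdzd2-dominant cells and 106 CPM (high B12) and 67.1 CPM (low B12) in Dnm3 and Nr3c2-dominant cells. Against the tied cells 0 of 17 listed genes were 1.5-fold higher in both libraries and Itgb7 was lower, beside 1.68% and 1.39% of all genes. Gpr183, the oxysterol receptor EBI2 that places B cells in the follicle, stood at 578 CPM (high B12) and 398 CPM (low B12) in Pdzd2-dominant cells and 257 CPM (high B12) and 291 CPM (low B12) in Dnm3 and Nr3c2-dominant cells, which passed 1.5-fold in the high-B12 library only.

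Plac8, a gene of marginal zone B cells and myeloid cells, was among the 3 genes furthest below each of the other 3 groups by the same ranking. The others were Igha and Apoe against the Dnm3 and Nr3c2 cells, Igha and S100a4 against the tied cells, and Jchain and Igha against the Sox5 and Cacna1e cells. Plac8 stood at 65.5 CPM (high B12) and 172 CPM (low B12) in Pdzd2-dominant cells, against 608 CPM (high B12) and 619 CPM (low B12) in Dnm3 and Nr3c2-dominant and 1333 CPM (high B12) and 781 CPM (low B12) in Sox5 and Cacna1e cells. Relative to the Sox5 and Cacna1e cells it was 20.4-fold lower in the high-B12 and 4.55-fold lower in the low-B12 library. Thinned to 2000 UMIs, it was seen in 7.23% (high B12, 18.8% unthinned) and 21.4% (low B12, 40.4% unthinned) of Pdzd2-dominant and 62.8% (high B12, 73.8% unthinned) and 51.7% (low B12, 70.6% unthinned) of Sox5 and Cacna1e cells. Among T cells it was seen in 10.8% (high B12, 22.7% unthinned) and 13.7% (low B12, 18.2% unthinned), so its share in high-B12 Pdzd2-dominant cells was not above that in a cell type outside the B lineage.

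Apoe, which encodes a lipid carrier, stood at 247 CPM (high B12) and 229 CPM (low B12) in Pdzd2-dominant cells and 1116 CPM (high B12) and 852 CPM (low B12) in Dnm3 and Nr3c2-dominant cells. Without the called doublets the Pdzd2-dominant level was 44.5 CPM (high B12) and 64.4 CPM (low B12), and the Dnm3 and Nr3c2-dominant level was 1082 CPM (high B12) and 751 CPM (low B12). Crip1, a LIM protein, stood at 432 CPM (high B12) and 299.8 CPM (low B12) in Pdzd2-dominant cells, against 897 CPM (high B12) and 663 CPM (low B12) in Dnm3 and Nr3c2-dominant and 2299.6 CPM (high B12) and 746 CPM (low B12) in Sox5 and Cacna1e cells. The calcium-binding protein gene S100a6 stood at 105 CPM (high B12) and 166 CPM (low B12) in Pdzd2-dominant cells and 2508 CPM (high B12) and 440.3 CPM (low B12) in Sox5 and Cacna1e cells. Inpp4b, a lipid phosphatase, stood at 72.0 CPM (high B12) and 95.7 CPM (low B12) in Pdzd2-dominant cells and 476 CPM (high B12) and 234 CPM (low B12) in Sox5 and Cacna1e cells. Plac8, Apoe, Crip1 and S100a6 were below the other 3 groups of B cells in both libraries, except that Apoe in the high-B12 library was above the tied cells (log2 ratio 0.12) when the rule asked for a margin of 2 UMIs.

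Bcl2, the anti-apoptotic gene, was the 1 of 8 survival and BAFF receptor genes past 1.5-fold in both libraries, and it was lower. It stood at 98.2 CPM (high B12) and 145 CPM (low B12) in Pdzd2-dominant cells and 165 CPM (high B12) and 243 CPM (low B12) in Dnm3 and Nr3c2-dominant cells. Of 23 genes of B cell receptor signalling, 12 MHC class II genes and 24 oxidative phosphorylation genes none passed 1.5-fold in both libraries against the Dnm3 and Nr3c2 cells, beside 2.73% of all genes higher and 1.57% lower. Cd79a stood at 2806 CPM (high B12) and 2530.3 CPM (low B12) in Pdzd2-dominant cells and 2197 CPM (high B12) and 1893 CPM (low B12) in Dnm3 and Nr3c2-dominant cells. Cd74, the invariant chain, stood at 10801 CPM (high B12) and 9681 CPM (low B12) in Pdzd2-dominant cells and 10085 CPM (high B12) and 9965 CPM (low B12) in Dnm3 and Nr3c2-dominant cells.

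Jchain and Igha were near 0 in Pdzd2-dominant cells, while other genes of antibody-secreting cells were detected. Jchain, which joins secreted IgM and IgA, had 1 UMI in the high-B12 and 3 UMIs in the low-B12 cells. Igha, the IgA constant region, had 2 UMIs in the high-B12 and 4 UMIs in the low-B12 cells. In the Dnm3 and Nr3c2-dominant cells without those over 10% immunoglobulin UMIs, Jchain was likewise low, at 5.30 CPM (high B12) and 4.56 CPM (low B12), against 2.18 CPM (high B12) and 4.22 CPM (low B12) in Pdzd2-dominant cells. The summed level of 12 plasma cell genes was 432 CPM in high-B12 and 415 CPM in low-B12 Pdzd2-dominant cells, with 4 of the genes at 0 in high-B12 and 1 in low-B12 cells. Xbp1, a factor of the secretory programme, had 15 UMIs in the high-B12 and 24 UMIs in the low-B12 cells. No member cell had more than 3.04% of its UMIs from immunoglobulin constant regions and Jchain in the high-B12 or 2.69% in the low-B12 library. Much of the Igha of the Dnm3 and Nr3c2-dominant cells came from cells over 10% immunoglobulin. It was 7177 CPM (high B12) and 209.9 CPM (low B12) with them, and 74.2 CPM (high B12) and 37.4 CPM (low B12) without them. In tied cells Igha was then 234 CPM (high B12, 233 CPM before) and 50.3 CPM (low B12). In Sox5 and Cacna1e cells it was then 126 CPM (high B12) and 27.4 CPM (low B12). All these levels stayed above those of Pdzd2-dominant cells, at 4.36 CPM (high B12) and 5.63 CPM (low B12). Igkc, the kappa constant region, stood at 6832 CPM (high B12) and 6586 CPM (low B12) in Pdzd2-dominant cells, and at 8789 CPM (high B12) and 7679 CPM (low B12) in Dnm3 and Nr3c2-dominant cells without the immunoglobulin-rich ones. Ighm stood at 2444 CPM (high B12) and 2473 CPM (low B12) in Pdzd2-dominant cells and 2338 CPM (high B12) and 3304 CPM (low B12) in Dnm3 and Nr3c2-dominant cells.

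By the median of its measured genes, the follicular B cell list stood above the Dnm3 and Nr3c2 cells in both libraries. In the high-B12 library 7 of 8 had a ratio above 1, with a median log2 ratio of 0.53, beside 60.8% of all genes above 1 and a median of 0.12. In the low-B12 library 6 of 10 did, with a median of 0.64, beside 51.7% of all genes and a median of 0.01. Of the 8 genes measured in both libraries 2, Ighd among them, were 1.5-fold higher in both and none was lower, beside 2.73% and 1.57% of all genes. Over the Sox5 and Cacna1e cells the list's median was 0.21 (high B12) and 0.73 (low B12), and over the tied cells it was 0.15 in each library. Against the tied cells 0 of 8 listed genes were 1.5-fold higher and 0 lower in both libraries, beside 1.68% and 1.39% of all genes. The list medians cover only the members that passed the minimum of 50 summed UMIs.

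Fcer2a, which encodes the follicular marker CD23, stood at 8.73 CPM (high B12) and 33.8 CPM (low B12) in Pdzd2-dominant cells, against 4.71 CPM (high B12) and 1.81 CPM (low B12) in Dnm3 and Nr3c2-dominant, 69.0 CPM (high B12) and 74.9 CPM (low B12) in tied and 16.9 CPM (high B12) and 7.87 CPM (low B12) in Sox5 and Cacna1e cells. It was thus below the tied cells in both libraries, and over the Sox5 and Cacna1e cells its ratio was 0.52 (0.14 to 1.41) in the high-B12 library and 4.29 (2.55 to 7.01) in the low-B12 library. Cr2, the complement receptor CD21 that is highest on marginal zone cells, stood at 37.1 CPM (high B12) and 60.5 CPM (low B12) in Pdzd2-dominant cells, against 2.35 CPM (high B12) and 25.8 CPM (low B12) in Dnm3 and Nr3c2-dominant, 157 CPM (high B12) and 121 CPM (low B12) in tied and 48.9 CPM (high B12) and 32.0 CPM (low B12) in Sox5 and Cacna1e cells. Cr2 in the low-B12 library was 2.34-fold higher than in the Dnm3 and Nr3c2 cells and 1.89-fold higher than in the Sox5 and Cacna1e cells, while it was below the tied cells in both libraries.

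Of 7 marginal zone genes measured in both libraries none was 1.5-fold higher than in the Dnm3 and Nr3c2 cells in both and Plac8 and Pdia4 were lower, beside 2.73% and 1.57% of all genes. Within single libraries 1.5-fold was passed upwards by 1 of 7 high-B12 genes, the Notch regulator Dtx1, beside 16.2% of all genes. In the low-B12 library 2 of 13 did, Cr2 and Tm6sf1, beside 7.07% of all genes. More were 1.5-fold lower, with 3 of 7 in the high-B12 library (Mzb1, Plac8 and Pdia4), beside 7.01% of all genes. In the low-B12 library 5 of 13 were lower (S1pr3, Plac8, Marcks, Cd9 and Pdia4), beside 7.98% of all genes. Of 5 B-1 genes none was higher in both libraries and Bhlhe41 was lower, beside the same 2.73% and 1.57%. Of 9 B-1 genes measured in the low-B12 library, Itgam and Rasgef1b were 1.5-fold higher and 4 were lower, beside 7.07% and 7.98% of all genes. The B-1 gene Cd5 had 0 UMIs in high-B12 and 1 UMI in low-B12 cells.

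Of 7 genes of age-associated and atypical B cells measured in both libraries, Itgax and Il9r were 1.5-fold higher than in the Dnm3 and Nr3c2 cells in both and none was lower, beside 2.73% and 1.57% of all genes. In the high-B12 library 4 of 7 were higher and none lower, beside 16.2% and 7.01% of all genes, with a median log2 ratio of 0.75. In the low-B12 library 3 of 11 were higher (Itgax, Cxcr3 and Il9r) and 3 lower (Fcrl5, Fas and Cd80), beside 7.07% and 7.98% of all genes. The median log2 ratio there was -0.04. Tbx21, which encodes T-bet, stood at 155 CPM (high B12) and 258 CPM (low B12) in Pdzd2-dominant cells and 91.8 CPM (high B12) and 229 CPM (low B12) in Dnm3 and Nr3c2-dominant cells. Zeb2, a zinc finger factor of that subset, stood at 2747 CPM (high B12) and 2412 CPM (low B12) in Pdzd2-dominant cells and 1599 CPM (high B12) and 2273 CPM (low B12) in Dnm3 and Nr3c2-dominant cells. Cxcr3, a chemokine receptor, stood at 54.6 CPM (high B12) and 66.1 CPM (low B12) in Pdzd2-dominant cells and 23.5 CPM (high B12) and 41.7 CPM (low B12) in Dnm3 and Nr3c2-dominant cells. Itgam, the CD11b chain used in the sort, stood at 122 CPM (high B12) and 201 CPM (low B12) in Pdzd2-dominant and 94.1 CPM (high B12) and 111 CPM (low B12) in Sox5 and Cacna1e cells. Thinned to 2000 UMIs Itgam was seen in 15.7% (high B12, 41.2% unthinned) and 28.6% (low B12, 53.5% unthinned) of Pdzd2-dominant cells and 61.2% (high B12, 83.1% unthinned) and 66.9% (low B12, 82.8% unthinned) of neutrophils. In T cells it was seen in 21.5% (high B12, 43.9% unthinned) and 9.59% (low B12, 22.1% unthinned), so the share of the high-B12 Pdzd2-dominant cells was not above that of the T cells. The T cells had passed the same CD11b sort and may carry Itgam themselves. Early B cell genes were absent or rare, with Rag1, Rag2, Dntt and Myb at 0 UMIs in both libraries and Cd93 at 0 UMIs in high-B12 and 4 UMIs in low-B12 cells. Mki67, a proliferation gene, had 2 UMIs in 2 high-B12 cells and 13 UMIs in 1 low-B12 cell.

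Between the libraries, Pdzd2-dominant cells differed by 1.5-fold or more in 440 of 3556 genes (12.4%), with 167 (4.70%) higher and 273 (7.68%) lower in the high-B12 library. The median log2 ratio over all genes was -0.03. Of the 5 marker genes of these cells, Pdzd2, Ighd, Ebf1, Ralgps2 and Fcrla, none passed 1.5-fold. Ralgps2, an exchange factor for Ral GTPases, stood at 1405 CPM in high-B12 and 1285 CPM in low-B12 cells (ratio 1.09, 0.987 to 1.21). Fcrla, an intracellular Fc receptor-like protein, stood at 391 CPM in high-B12 and 376 CPM in low-B12 cells (ratio 1.04, 0.855 to 1.26). Ebf1 stood at 2948 CPM in high-B12 and 3279 CPM in low-B12 cells (ratio 0.899, 0.840 to 0.962). Each of the 5 thus lay within 1.5-fold between the libraries. With 12.4% of all genes past it, a count of 0 among 5 genes is near that share. For Pdzd2, the gene of the rule, the level in the members was set in part by the selection in each library.

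Among the genes higher in the high-B12 library, Hes1, a repressor induced by Notch signals, stood at 164 CPM in high-B12 and 32.4 CPM in low-B12 cells (ratio 5.06, 3.13 to 8.46). It came from 17 high-B12 and 15 low-B12 cells, and it stood at 72.3 CPM in high-B12 and 53.8 CPM in low-B12 cells among the other B cells. Klra1 stood at 297 CPM in high-B12 and 132 CPM in low-B12 cells (ratio 2.24, 1.71 to 2.95). In the other B cells Klra1 was also higher in the high-B12 library, at 38.5 CPM (high B12) and 13.5 CPM (low B12). Hspa1a, an inducible heat shock protein 70 gene whose near-identical copy Hspa1b can share its reads, stood at 971 CPM in high-B12 and 449 CPM in low-B12 cells (ratio 2.16, 1.87 to 2.51). In the other B cells Hspa1a stood at 785 CPM (high B12) and 858 CPM (low B12).

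Gch1, the first enzyme of tetrahydrobiopterin synthesis, stood at 105 CPM in high-B12 and 52.1 CPM in low-B12 cells (ratio 2.01, 1.28 to 3.18). The regulators of G protein signalling Rgs1 and Rgs2 were higher too, with Rgs2 at 273 CPM in high-B12 and 153 CPM in low-B12 cells (ratio 1.78, 1.36 to 2.32). Hp1bp3, a chromatin protein, and Ndufa5, a subunit of respiratory complex I, had ratios of 2.16 (1.35 to 3.49) for Hp1bp3 and 1.88 (1.30 to 2.71) for Ndufa5. Manf, an endoplasmic reticulum stress protein, had 28 of its 71 high-B12 UMIs in 1 cell. Il1b, the gene of interleukin 1 beta, had 47 of its 49 high-B12 UMIs in 1 cell, and its log2 ratio of 2.87 became -0.95 without the leading cell of each library.

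Among the genes lower in the high-B12 library, Plac8 stood at 65.5 CPM in high-B12 and 172 CPM in low-B12 cells (ratio 0.381, 0.247 to 0.572), while it stood at 1145 CPM in high-B12 and 722 CPM in low-B12 cells among the other B cells. Brd2, a reader of acetylated histones, stood at 103 CPM in high-B12 and 243 CPM in low-B12 cells (ratio 0.421, 0.298 to 0.584). Pard3b, a cell polarity gene, stood at 34.9 CPM in high-B12 and 108 CPM in low-B12 cells (ratio 0.322, 0.175 to 0.557), and the carboxypeptidase gene Agbl1 stood at 15.3 CPM in high-B12 and 107 CPM in low-B12 cells (ratio 0.143, 0.0555 to 0.309). For the histone gene Hist1h2ap, 65 of 79 low-B12 UMIs came from 1 cell, and for Hist1h2ae 61 of 72 did. These replication histones are near-identical in their coding parts, so their counts are uncertain.

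Monocyte genes moved with a few cells. The summed level of 14 monocyte and macrophage genes was 1039 CPM in high-B12 cells, with 5 genes at 0, and 2573 CPM in low-B12 cells, with none at 0. Lyz2 stood at 375 CPM in high-B12 and 1593 CPM in low-B12 cells (ratio 0.236, 0.199 to 0.277), and 1 high-B12 cell held 138 of 172 UMIs. Without the called doublets Lyz2 was 72.5 CPM (high B12) and 34.7 CPM (low B12). Fn1, the gene of fibronectin, had 0 UMIs in high-B12 and 73 UMIs in low-B12 cells, which came from 4 cells. Without the called doublets 1 of these UMIs was left. S100a4 was 7.02 CPM (high B12) and 11.6 CPM (low B12) without them, and Fcer1g, the Fc receptor gamma chain, was 21.1 CPM (high B12) and 41.3 CPM (low B12). Of 5 monocyte and macrophage genes tested, 4 were 1.5-fold lower in the high-B12 library and none was higher, beside 7.68% of all genes lower.

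Neutrophil transcripts ran the other way, with a summed level of 13 genes of 842 CPM in high-B12 and 225 CPM in low-B12 cells. Most of this sum was S100a8 and S100a9, which the rule capped at less than 1% of a cell's UMIs. It also held Il1b, at 107 CPM in high-B12 cells, nearly all from a single cell as given above. S100a8 stood at 273 CPM in high-B12 and 50.7 CPM in low-B12 cells (ratio 5.38, 3.69 to 8.03) and S100a9 at 323 CPM in high-B12 and 80.2 CPM in low-B12 cells (ratio 4.03, 2.95 to 5.57). The free RNA of droplets with 10 to 100 UMIs held S100a8 at 32735 CPM (high B12) and 11863 CPM (low B12). In the Sox5 and Cacna1e cells S100a8 was 215 CPM (high B12) and 117 CPM (low B12). The part of free RNA in the S100a8 and S100a9 values of Pdzd2-dominant cells was not tested.

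**Figure D4:**
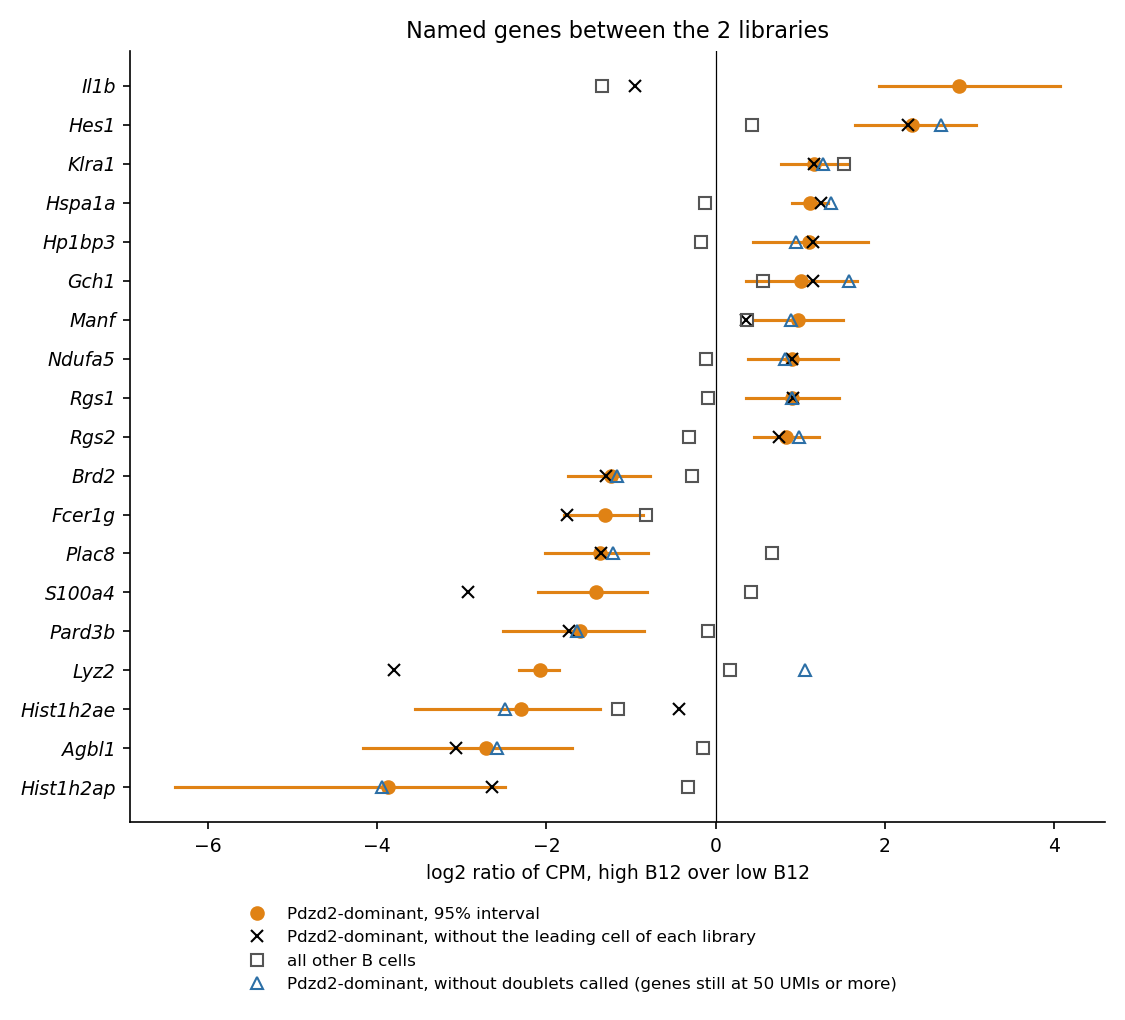
Log2 ratio of the level in CPM between the high-B12 and the low-B12 library (high over low) for 19 named genes in Pdzd2-dominant B cells (orange, with exact 95% intervals), without the leading cell of each library (crosses), without called doublets (triangles) and in all other B cells (squares). Hes1, Klra1, Hspa1a, Plac8 and Brd2 stay on their side in all 3 views of the Pdzd2-dominant cells, while Il1b and Lyz2 cross 0.

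Gene lists showed small shifts between the libraries. Of 28 B lineage transcription factors, 0 were 1.5-fold higher and 2 lower in the high-B12 library, near the 4.70% and 7.68% of all genes. These were Foxo1, at 201 CPM in high-B12 and 376 CPM in low-B12 cells (ratio 0.534, 0.417 to 0.680), and Tbx21, at 155 CPM in high-B12 and 258 CPM in low-B12 cells (ratio 0.602, 0.451 to 0.795). All 24 oxidative phosphorylation genes lay within 1.5-fold, with 22 above a ratio of 1, beside 46.1% of all genes above 1, and a median log2 ratio of 0.21 against -0.03 for all genes. Gene length moved with this comparison too, with a median log2 ratio of 0.10 for the 888 genes with the shortest span. For the 889 with the longest span it was -0.17. The part of gene length in the shifts of the lists was not tested. Of 24 B cell receptor signalling genes 6 lay above 1, with a median of -0.17, and only Pik3r1 passed 1.5-fold, at 45.8 CPM in high-B12 and 99.9 CPM in low-B12 cells (ratio 0.459, 0.268 to 0.755). Of 14 heat shock chaperones only Hspa1a passed 1.5-fold, and the median was 0.15. Of 12 MHC class II genes none passed 1.5-fold, and the median was 0.11. The counts past 1.5-fold for the phosphorylation, receptor signalling, chaperone and class II genes stand beside 12.4% of all genes. For the 14 chaperones and 12 class II genes they are near that share. Of 18 immediate early genes Atf3 was 1.5-fold higher and Egr1 lower, beside 4.70% and 7.68% of all genes, with Egr1 at 161 CPM in high-B12 and 297 CPM in low-B12 cells (ratio 0.544, 0.411 to 0.712).

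Genes tied to the study's title were measured on few UMIs. Tet2, the methylcytosine dioxygenase, stood at 76.4 CPM in high-B12 and 84.4 CPM in low-B12 cells (ratio 0.904, 0.578 to 1.39). Tet1 had 0 UMIs in both libraries. Mtr, the methionine synthase that uses vitamin B12 as its cofactor, stood at 24.0 CPM in high-B12 and 33.8 CPM in low-B12 cells (ratio 0.711, 0.314 to 1.51), on 11 high-B12 and 24 low-B12 UMIs. Of 3 genes of the B12, folate and methionine list that had enough UMIs none passed 1.5-fold. Neither did any of 6 Tet and chromatin genes. Over all genes 12.4% did, so counts of 0 among so few genes are near that share. The Tet2 and Mtr intervals both include a ratio of 1, so a difference was not detectable at this depth.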

How the data were processed

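Single-cell 3′ RNA libraries were made from sorted CD45.2 and CD11b positive spleen cells, 1 for each treatment. The authors deposited raw UMI counts per gene and barcode, empty droplets included, and they had not been normalized. The file headers name Cell Ranger 4 while version 2.1.1 stands in the submitters' processing notes. For the genome build and annotation, the sources used here give no entry. Total depth was 46994991 UMIs in the high-B12 and 48884220 UMIs in the low-B12 library. Counts were summed over the cells of a group and given as CPM, with numpy 2.4.6, scipy 1.17.1 and scanpy 1.11.5 (Scrublet). Ratios used genes with at least 50 UMIs over the 2 groups, and log2 ratios a pseudocount of 0.5 UMI. Ratio intervals are exact conditional binomial, shares Clopper-Pearson and levels Poisson, all at 95% and for counting error only. With 1 library per treatment no p-value was computed, and a call was a ratio past 1.5-fold. Named genes were up to 10 each way at 100 CPM or more whose interval excluded 1.25-fold, in both libraries for comparisons between B cell groups, plus 15 set genes and members of the described lists. Genes named beyond that rule were chosen after their values were seen. Alternatives changed cell filters, the margin, doublets, immunoglobulin-rich cells, scaling, depth and gene filters. The scripts were tested on simulated data. The members and the 34 gene lists were chosen with earlier results of these data known. The values of 1 gene are not reported here.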

Additional observations from a re-analysis of the deposited data

Results flagged for a closer look

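Of 293 genes screened, 21 had a log2 ratio of the high-B12 over the low-B12 library in Pdzd2-dominant cells whose interval lay on the other side of 0 from that in the other B cells. Whether the ratios differ beyond the spread between mice was not tested, as each treatment had 1 library.

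Among genes higher in the high-B12 Pdzd2-dominant cells, Il1b had a log2 ratio of 2.87, against -1.35 in the other B cells, with 47 of 49 UMIs in 1 cell. The heat shock genes had 1.11 against -0.13 (Hspa1a), 0.34 against -0.40 (Hspa1b) and 0.39 against -0.29 (Hsph1). Tent5c, a poly(A) polymerase gene, had 0.89 against -0.46, and Rgs2 had 0.83 against -0.32. Spn, the gene of CD43, had 0.70 against -0.90, and the inhibitory Fc receptor gene Fcgr2b had 0.32 against -0.81. The transcription factors Tcf4 and Zeb2 had 0.46 against -0.17 and 0.19 against -0.73. Genes of antigen presentation differed little, with 0.25 against -0.23 (H2-Ab1), 0.11 against -0.10 (H2-Eb1), 0.29 against -0.05 (H2-D1) and 0.16 against -0.04 (Cd74).

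Among genes lower in the high-B12 Pdzd2-dominant cells, Lyz2 had a log2 ratio of -2.08, against 0.17 in the other B cells, and S100a4 had -1.41 against 0.42. Plac8 had -1.37 against 0.67, and S100a6 had -0.66 against 2.22. Without the called doublets S100a6 in Pdzd2-dominant cells was 37.4 CPM (high B12, 16 UMIs) and 18.2 CPM (low B12, 11 UMIs), so its direction changed. Cd55, a complement regulator, had -0.60 against 1.16. Cst3, the gene of cystatin C, had -0.51 against 0.16, and Foxp1 had -0.16 against 0.44. The part of called doublets in the Lyz2 and S100a4 values can be read from their levels without them, given above. Without cells of 10 or more Lyz2 UMIs, S100a4 in Pdzd2-dominant cells was 53.6 CPM (high B12) and 18.9 CPM (low B12). S100a6 was then 98.3 CPM (high B12) and 40.9 CPM (low B12), so both genes were higher in the high-B12 library.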

How the results depend on the processing

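Of the log2 ratios of named genes between libraries recomputed under the alternatives, 360 stayed within their counting interval, 19 moved beyond it and 5 changed sign. Between B cell groups these numbers were 2063, 138 and 3. Lyz2 between libraries became 1.05 without called doublets and 1.06 without cells of 10 or more Lyz2 UMIs, where Fcer1g became 0.0041. Without the leading cell of each library Il1b became -0.95 and Mki67 2.22. Over the tied cells of the high-B12 library Apoe became 0.12 with a margin of 2 UMIs and Ifitm3 0.95 without cells of 10 or more Lyz2 UMIs. Mki67 over the Sox5 and Cacna1e cells of the low-B12 library became -0.25 with cells weighted equally. The cause was not tested beyond the cells named in each setting.

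The share of B cells became 8.96% (high B12) and 4.52% (low B12) with a margin of 2 UMIs, which also gave 27 genes lower than in tied cells, and 10.9% (high B12) when thinned. Thinning, with fewer UMIs, left 66 genes higher and 98 lower between libraries. A minimum of 200 UMIs per gene left 9 higher and 25 lower between libraries, 14 and 10 against the Dnm3 and Nr3c2 cells, 6 and 10 against the tied cells, and 50 and 70 against the Sox5 and Cacna1e cells. A minimum of 10 UMIs gave 1046 and 1460, 275 and 244, 229 and 220, and 457 and 503, in the same order. The share led by Igkv12-46 or Igkv3-4 in other B cells became 67.4% (low B12) with 1 kappa V UMI and 14.2% (high B12) with Igkv12-44 counted. In low-B12 Pdzd2-dominant cells it ranged over 24.0 to 33.3% across cell choices. The alternatives on V segments, leading cells, Lyz2 and immunoglobulin-rich cells were chosen after seeing the data. Depth limits the V segment shares to few cells. No paired analysis was possible because each treatment had 1 library.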
